A study of Mus musculus with 2 samples.

Results

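Imprinted genes, which are expressed mainly from the copy inherited from 1 parent, were described here in adult mouse brain. The members were 40 named genes from the major imprinted clusters, matched by gene symbol to 43346 Ensembl genes in each gene table, of which 42462 had a symbol. All 40 were found. By textbook knowledge 23 were placed with the paternally expressed genes and 8 with the maternally expressed genes. H13 was placed with the latter by its full-length transcripts. A further 9, whose imprinting depends on isoform or cell type, were kept apart (Gnas, Inpp5f, Copg2, Blcap, Grb10, Igf2, Igf2r, Trappc9 and Ube3a). No allele was measured, and an inbred strain carries no variants between its parental copies, so the groups are labels from background knowledge and not observations.

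The samples were 2 libraries of poly(A) RNA from the brain of an adult male mouse of the inbred strain C57BL/6J, 10 weeks old, and no treatment is named. The labels call them technical replicates 1 and 2 of biological replicate 1 and say that replicate 2 was made later than the work they cite. Both come from 1 animal, so the spread between them holds no difference between mice, and no source used here says whether they share an RNA extract. Each table held about the same number of reads, 18302506 expected counts in replicate 1 and 17828479 in replicate 2. Since there is 1 group, the comparisons are between genes within a library and between the libraries.

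Genomic imprinting rests on DNA methylation that is set in the germ line at imprinting control regions and kept on the same parental copy through development. At such a region the unmethylated copy can drive a long noncoding RNA or bind the insulator protein Ctcf, and neighbouring genes are then expressed from opposite parental copies. Many imprinted genes are highly expressed in brain, where they bear on growth, feeding, maternal behaviour and sleep. Loss of the paternally expressed genes around SNRPN causes Prader-Willi syndrome in people, and loss of the maternal UBE3A copy causes Angelman syndrome.

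The promoters of the members are shown first because several results turn on which start site a gene's reads were assigned to. The use of a start was not itself measured. The zinc finger protein Zfp57 keeps the methylation of imprinting control regions by binding the hexamer TGCCGC when its CpG is methylated. Windows from 250 bases before to 50 bases after each RefSeq start (GRCm38.p6) were found for 32 members, 45 windows in all, of which 43 are distinct because Snurf and Snhg14 share a window with Snrpn each. The hexamer, on either strand as TGCCGC or GCGGCA, was in 13 of the 45 windows (28.9%), against 3813 of 32851 windows in the whole table (11.6%). Among windows with at least 15 CpG dinucleotides it was in 9 of 23 for the members (39.1%) and in 25.1% of all such windows. The members' windows held a median of 15 CpG and 57.7% GC, where all windows held a median of 7 CpG and 52.7% GC. Counted by gene, 12 of 32 members (37.5%) had the hexamer in at least 1 window, where 13.1% of 27025 genes in the whole table did. Among genes with windows of at least 15 CpG the shares were 42.1% and 26.4%. The 12 were 7 of 19 paternally expressed genes, 2 of 5 maternally expressed genes and 3 of 8 kept apart. The window shared by Snrpn and Snurf is counted for each, and 2 Mest windows with the hexamer overlap almost wholly. The sequences below run 5′ to 3′ on the gene's own strand and hold 250 bases before and 30 bases after the start, with the hexamer in capitals. The Snrpn windows are shown because the libraries differed in which of these starts they were assigned to, Mest and Meg3 because they are a paternally and a maternally expressed gene with the hexamer. The near start of Snrpn is on the minus strand at chr7:60005170-60005449 and its upstream start at chr7:60140196-60140475. The Mest window is on the plus strand at chr6:30737800-30738079 and the Meg3 window on the plus strand at chr12:109540746-109541025.
Snrpn near start: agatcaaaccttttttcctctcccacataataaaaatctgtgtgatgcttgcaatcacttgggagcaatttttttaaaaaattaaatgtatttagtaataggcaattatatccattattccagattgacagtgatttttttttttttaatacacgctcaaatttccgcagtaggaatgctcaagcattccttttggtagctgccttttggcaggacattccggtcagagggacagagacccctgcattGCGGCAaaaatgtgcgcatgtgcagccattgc
Snrpn upstream start: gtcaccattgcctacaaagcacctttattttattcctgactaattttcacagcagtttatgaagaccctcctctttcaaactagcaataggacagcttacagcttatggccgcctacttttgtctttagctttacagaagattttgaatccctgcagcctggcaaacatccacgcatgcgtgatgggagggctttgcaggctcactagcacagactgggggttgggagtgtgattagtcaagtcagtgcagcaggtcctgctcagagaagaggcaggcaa
Mest: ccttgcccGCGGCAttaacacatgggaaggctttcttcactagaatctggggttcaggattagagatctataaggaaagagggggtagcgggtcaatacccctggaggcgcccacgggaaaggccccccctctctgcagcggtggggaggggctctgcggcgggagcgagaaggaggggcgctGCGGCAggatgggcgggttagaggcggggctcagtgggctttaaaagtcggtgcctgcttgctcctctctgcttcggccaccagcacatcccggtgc
Meg3: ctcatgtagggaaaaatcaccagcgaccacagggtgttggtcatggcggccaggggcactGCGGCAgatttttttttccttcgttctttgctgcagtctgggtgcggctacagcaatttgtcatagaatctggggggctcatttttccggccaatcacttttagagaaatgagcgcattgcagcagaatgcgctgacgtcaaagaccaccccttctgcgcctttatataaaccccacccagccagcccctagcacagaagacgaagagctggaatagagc
The Snrpn near window has 1 hexamer, which lies across the RefSeq start, and the upstream window has 0. Mest has 2 hexamers in its window and Meg3 has 1. A match describes these letters and shows neither binding nor methylation, which were not measured.

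In TPM, a transcript level scaled by transcript length and to the same total in each library, 31 of the 40 members reached at least 1 TPM in replicate 1 and 37 in replicate 2. The same 31 genes did so in both. Together the members held 4064 TPM in replicate 1 and 7329 TPM in replicate 2, which is 0.406% and 0.733% of all TPM. By expected counts, the estimated number of reads per gene, they held 0.752% and 0.873% of each library. Leaving out Snurf, whose count is uncertain, the highest mean levels were those of the noncoding RNAs Rian and Meg3, the splicing factor gene Snrpn, the G protein gene Gnas and the nucleosome assembly protein gene Nap1l5, which made up 78.2% of the members' TPM in replicate 1 and 65.9% in replicate 2. Of the members, 4 ranked among the 100 highest genes in each library. These were Rian, Nap1l5, Gnas and Snrpn in replicate 1 and Gnas, Meg3, Rian and Snurf in replicate 2.

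**Figure D1:**
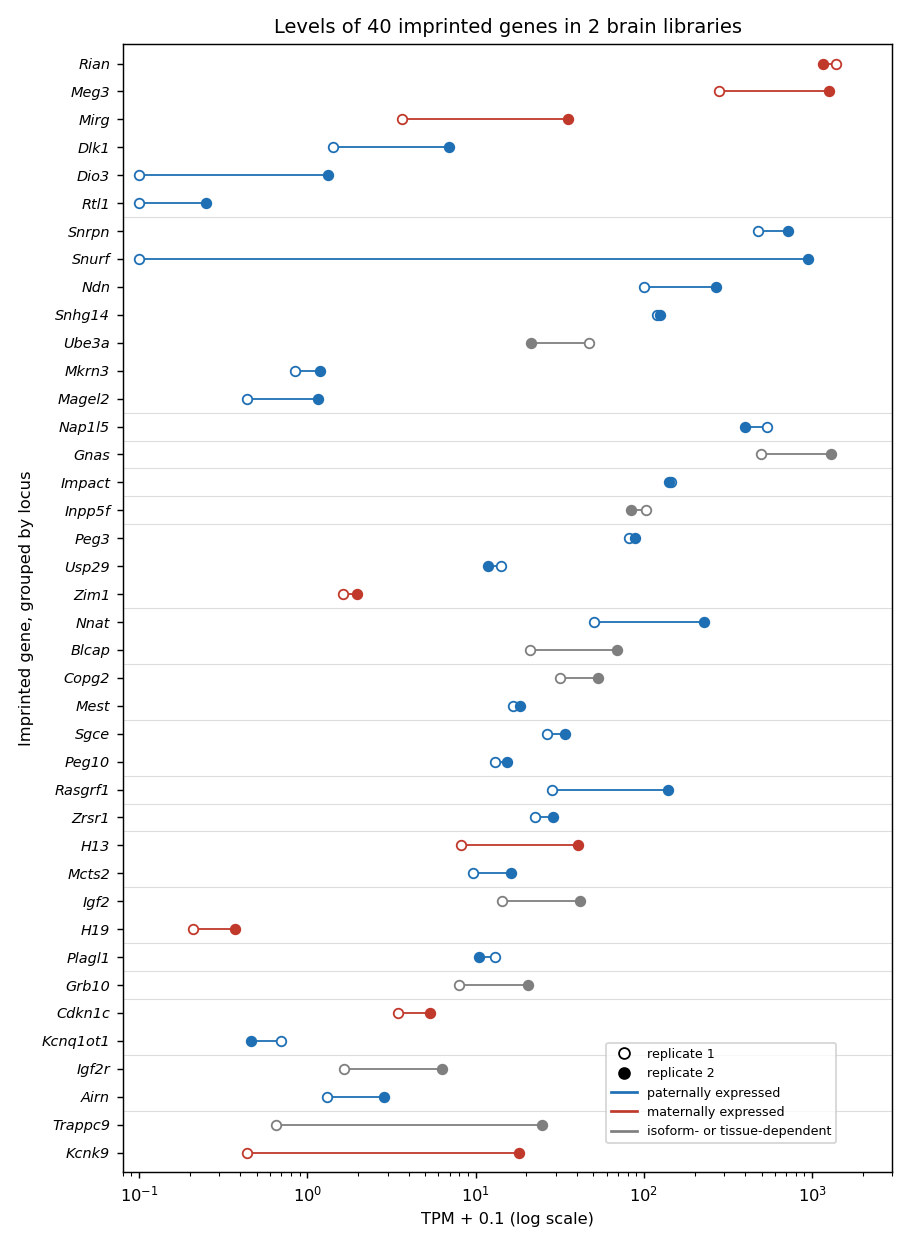
Level of each of the 40 imprinted genes (TPM + 0.1, log scale) in replicate 1 (open circles) and replicate 2 (filled circles), grouped by locus, with colours for the expressed parental copy from background knowledge. Rian, Gnas, Meg3, Snrpn and Nap1l5 lie at the right, and Snurf, Dio3 and Rtl1 are at 0 in replicate 1 and above 0 in replicate 2.

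TPM was higher in replicate 2 for 32 members and lower for 8, and among all 16320 genes with at least 10 counts it was higher in replicate 2 for 73.6%. The log2 ratio between the libraries, replicate 2 over replicate 1 on TPM + 1, had a median of 0.61 for the members and 0.71 for those genes. On this scale the change of low genes is understated. The libraries were also compared by a 2-sided exact binomial test on counts with TMM library sizes (edgeR's scaling by the typical gene). A gene was called at an adjusted p under 0.05, Benjamini-Hochberg over all genes tested, and at least 2-fold. This test compares the libraries beyond counting error and has no replicate check. It called 34.5% of all genes higher in replicate 2 and 23.8% lower, 58.2% in all. Of the members, 39 were tested, 11 were called higher (28.2%) and 9 lower (23.1%), near those shares. With library totals in place of TMM, which moves every log2 count ratio by 0.61, the members split into 15 higher and 3 lower (Kcnq1ot1, Snhg14 and Ube3a), and all genes into 43.4% and 7.83%. With the GC trend of all genes removed, only Kcnk9, Snurf and Trappc9 of the 11 stayed called higher. Only Plagl1 of the 9 stayed called lower, so the calls given for other members hold only without that step. Kcnk9 and Snurf passed the filter on low counts only through replicate 2. The levels of the members agreed between the libraries with a Pearson correlation of 0.806 on log2(TPM + 1) and a Spearman correlation of 0.792 over 40 genes, which share libraries and are not independent replicates.

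The summed level of the paternally expressed members was 1658 TPM in replicate 1 and 3205 TPM in replicate 2, 2430 ± 1090 (SD, n = 2 libraries of 1 mouse). That of the maternally expressed members was 1682 and 2518 TPM, 2100 ± 591 (SD, n = 2). The sums were almost equal in replicate 1, and in replicate 2 the paternal sum was above the maternal one. Snurf alone held 944.9 TPM of the paternal sum in replicate 2 and is a short gene whose count is uncertain. Without it the paternal sum was 2260 TPM in replicate 2, under the maternal one. A few genes set these sums: Meg3 and Rian held 99% of the maternal TPM in replicate 1 and 96.0% in replicate 2. Snrpn and Nap1l5 held 61.2% and 35.1% of the paternal TPM. The median member, by contrast, was at 14 and 18.2 TPM among the paternally expressed genes and at 3.43 and 26.6 TPM among the maternally expressed ones. The 9 genes kept apart summed to 723.8 and 1605 TPM, of which Gnas was the highest. By class the calls were 6 higher and 6 lower of 23 paternally expressed genes, 3 higher and 1 lower of 7 tested maternally expressed genes, and 2 higher and 2 lower of the 9 kept apart, sets too small to set apart from the 34.5% and 23.8% of all genes.

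**Figure D2:**
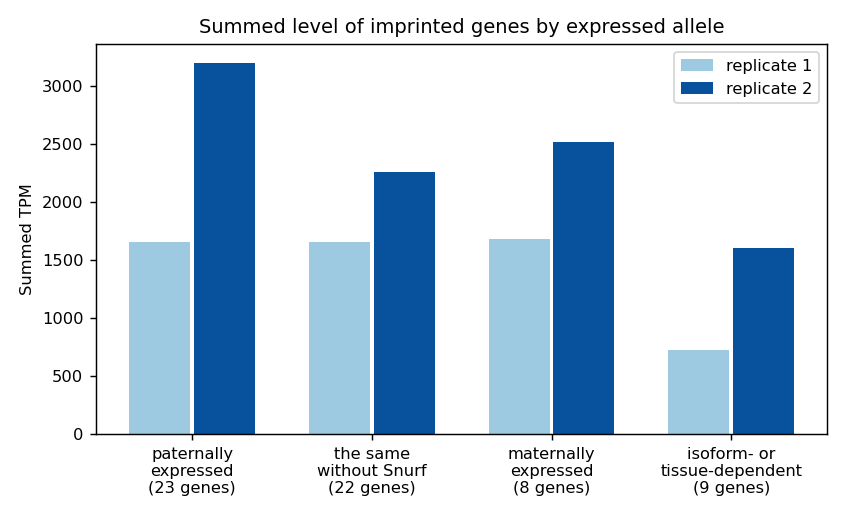
Summed TPM of imprinted genes by expressed parental copy in replicate 1 (light bars) and replicate 2 (dark bars), each bar 1 library. The paternal and maternal sums are 1658 and 1682 TPM in replicate 1, and in replicate 2 the paternal sum passes the maternal one (2518 TPM) with Snurf (3205 TPM) and not without it (2260 TPM).

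The Dlk1-Dio3 cluster on chromosome 12 holds the paternally expressed protein genes Dlk1, Rtl1 and Dio3 and the maternally expressed noncoding RNAs Meg3, Rian and Mirg, which are hosts of snoRNAs and of a large miRNA cluster. Its RNA was almost wholly of the maternal kind: Meg3, Rian and Mirg held 99.9% of the locus TPM in replicate 1 and 99.7% in replicate 2. Rian (chr12:109603940-109661716) was at 1386 TPM in replicate 1 and 1160 TPM in replicate 2, and was the member of highest mean level, 1270 ± 160 (SD, n = 2). Its TPM ratio was 0.837 (95% Clopper-Pearson interval from the counts, 0.82 to 0.854). Its counts of 22370 and 15916 made it 1 of the 9 members called lower by the count test, and it was under 2-fold with library totals. Such intervals cover counting error only.

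Meg3 (chr12:109541001-109571726) was at 278.5 TPM in replicate 1 and 1257 TPM in replicate 2, a ratio of 4.51 (4.46 to 4.57), while its counts were 38377 and 55359. Between the libraries the mean effective length assigned to the gene went from 9592 to 4063 bases, and at equal length 1 count was worth 1.33 times as much TPM in replicate 2 (median of 22 members of higher count). The longest transcript, of 14548 bases, held 51.03% of the gene's TPM in replicate 1 and 21.79% in replicate 2. In replicate 2, 4 transcripts of 457 to 1988 bases held between 13.29% and 15.75% each. The count test did not call Meg3. The order of Rian and Meg3 within a library turned accordingly, with Rian 4.98 times Meg3 in replicate 1 and 0.923 times in replicate 2.

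Mirg, the host of the distal miRNAs of the cluster, was at 3.53 and 35.17 TPM (85 and 332 counts) and was called higher (log2 count ratio 1.39, adjusted p = 1.99e-17, binomial test with TMM sizes). GENCODE places 14 miRNA hairpins on its strand within its bounds and 3 within Rian. Rtl1, a retrotransposon-derived gene of placenta and muscle, lies opposite 6 hairpins of the maternally expressed strand. The miRNAs themselves were not measured.

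The paternally expressed protein genes of the cluster were low. Dlk1, a transmembrane inhibitor of differentiation related to Notch ligands, was at 1.32 and 6.87 TPM (71 and 215 counts). Dio3, the deiodinase that inactivates thyroid hormone, had 0 counts in replicate 1 and 24 in replicate 2 (1.22 TPM), at least 9.1-fold higher in TPM than the 0.134 TPM that 3 counts, the most a count of 0 allows, would give in replicate 1. Rtl1 had 0 and 10 counts (0.15 TPM), at least 4.44-fold higher against 0.0338 TPM on the same terms. These folds leave out the counting error of replicate 2, which is wide at such counts. All 3 were among the 11 called higher, and Dio3 and Rtl1 passed the filter on low counts only through replicate 2, so for them a call follows from passing. Within a library Meg3 was 211 and 183 times the level of Dlk1.

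The Prader-Willi and Angelman region on chromosome 7 holds 7 members, which summed to 740.8 TPM in replicate 1 and 2085 TPM in replicate 2, of which Snurf was 944.9 TPM. Snrpn (chr7:59982495-60140219, minus strand), which encodes the brain form of a core spliceosome protein, was at 474 and 722.5 TPM, 598 ± 176 (SD, n = 2). Its counts of 12778 and 13676 were near equal and it was not called. Its paralog outside the imprinted regions, Snrpb, was at 4.57 and 103.2 TPM, so Snrpn exceeded it 104-fold in replicate 1 and 7-fold in replicate 2.

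The libraries differed sharply in which Snrpn transcript they were assigned to. The transcript from the upstream start held 88.1% of the gene's TPM in replicate 1 and 0.8% in replicate 2. The transcript from the near start held 11.9% and 99.2%. In counts, the upstream form went from 11357 to 117 and the near form from 1421 to 13558. The starts of these transcripts lie 135108 bases apart, but the transcripts share their body, and only 83 bases of the near form and 227 bases of the upstream form are its own. The sequences above show the windows at these starts; the GENCODE start of the near transcript lies 88 bases downstream of the RefSeq start in the near window.

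Snurf, the upstream reading frame of the same transcript, had 0 counts in replicate 1 and 496 in replicate 2, which is 0 and 944.9 TPM on an effective length of 48 bases. Against the 4.35 TPM that 3 counts would give in replicate 1, replicate 2 was at least 217-fold higher in TPM. All 216 exonic bases of Snurf lie within exons of Snrpn and of the readthrough gene Gm38393, so its reads cannot be told from theirs. The counts of the 3 genes together were 13962 and 14561. Snurf was called higher, but it passed the filter on low counts only through replicate 2, so with TMM sizes its call follows from passing. The level of Snurf is uncertain.

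Ndn (chr7:62346569-62350262), encoding necdin, a growth suppressor of postmitotic neurons, was at 99.42 and 269.1 TPM (2.71-fold, 2.57 to 2.85), and its log2 count ratio of 0.45 did not reach 2-fold. Its neighbours were low. Magel2, a regulator of a ubiquitin ligase complex that acts in hypothalamus, was at 0.34 and 1.05 TPM on 22 and 51 counts. Mkrn3, a ubiquitin ligase known for its role in the timing of puberty, was at 0.74 and 1.09 TPM on 25 and 28 counts, with no difference detectable at this depth. Of 7 hypothalamic neuropeptide genes, Avp, Oxt and Agrp had 0 counts in both libraries and the sum of all 7 was 2.25 and 7.25 TPM. Whether the low level of Magel2 goes with how much hypothalamus the tissue held was not tested.

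Ube3a (chr7:59228750-59311536), the ubiquitin ligase gene expressed from the maternal copy in neurons, was at 46.89 TPM in replicate 1 and 21.34 TPM in replicate 2, a ratio of 0.455 (0.425 to 0.487). It was the 1 member called lower at 4-fold in counts (3311 and 1136) and remained called lower with library totals. Snhg14 (chr7:59307924-59975759), the long host transcript of snoRNAs whose far end runs antisense to Ube3a, had 4551 and 2012 counts and was called lower as well (log2 count ratio -1.75). Its TPM was 119.4 and 125.3, on effective lengths of 2653 and 1482 bases. With the GC trend removed neither Ube3a nor Snhg14 was called. Within a library Snhg14 was 2.55 and 5.87 times the level of Ube3a. The genes share 1803 exonic bases on opposite strands, and whether the counting used strand is not given, so reads there could not be assigned with certainty.

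Gnas on chromosome 2 (chr2:174284320-174346744) makes the biallelic or tissue-specifically imprinted signalling protein Gs-alpha and, from upstream starts, the maternally expressed Nesp55, the paternally expressed XLas and the paternally expressed noncoding exon 1A transcript. The gene was at 497 and 1286 TPM (9268 and 19993 counts), 2.59-fold (2.52 to 2.65), under the 2-fold limit on TMM-scaled counts and above it with library totals. Transcripts from the Gs-alpha start held 77.3% of its TPM in replicate 1 and 94.7% in replicate 2. Transcripts placed with the Nesp start held 22.1% and 0.7%, or 109.6 and 8.6 TPM, on 818 and 168 counts. In replicate 1 these were all from 1 short transcript of 702 bases, which had 12 counts in replicate 2. The exon 1A start held 0.5% and 4.2%, or 2.4 and 53.66 TPM, on 93 and 721 counts. In both classes the counts differed less between the libraries than the TPM did. The XLas start was assigned 0 counts in replicate 1 and 15 in replicate 2. Within the Gs-alpha group the leading transcript changed between the libraries. The leader of replicate 1, of 1695 bases, held 77.21% and 9.43% of the gene's TPM, and that of replicate 2, of 1716 bases, held 0% and 74.85%, with only 32 and 8 bases not found in the other main Gnas transcripts. The antisense transcript of the Nesp start, Nespas, had 0 counts in both libraries.

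**Figure D3:**
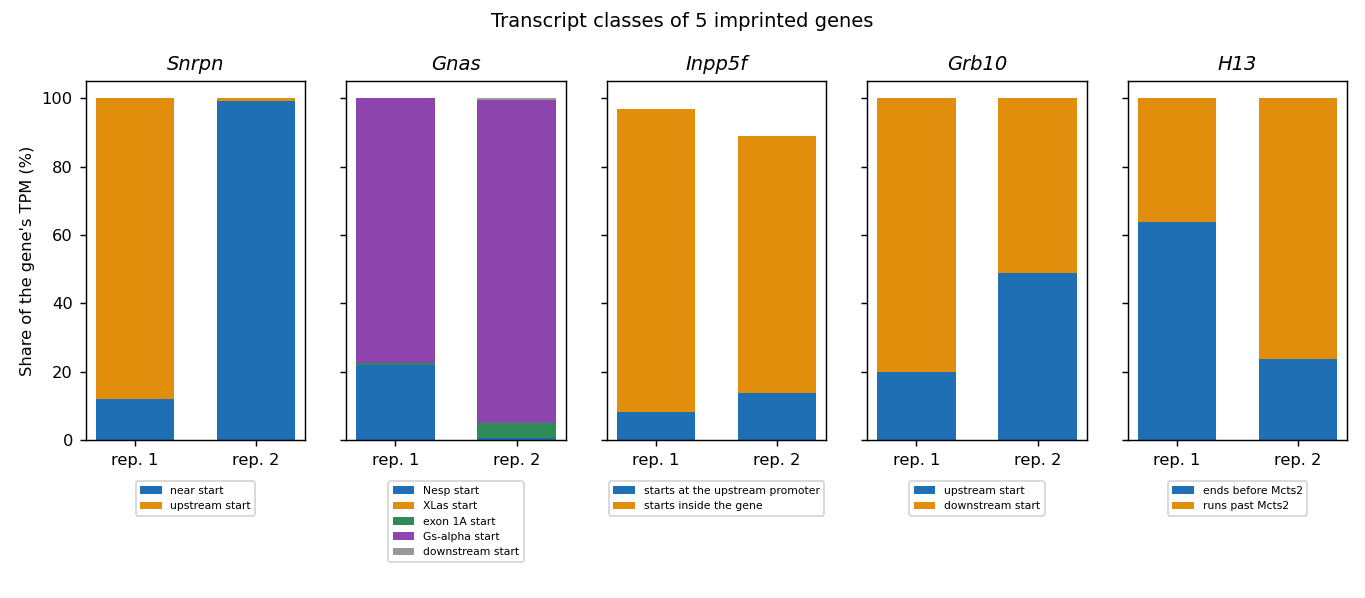
Share of each gene's TPM (%) held by transcript classes of Snrpn, Gnas, Inpp5f, Grb10 and H13 in replicates 1 and 2, each bar 1 library. The near start of Snrpn goes from 11.9% to 99.2%, and the bars of Inpp5f stop short of 100% because its remaining transcripts were put in neither class.

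Imprinted transcripts from alternative starts also occur in Grb10 and Inpp5f. Grb10, an adaptor that restrains insulin and growth factor receptors, uses a maternally expressed upstream start in most tissues and a paternally expressed downstream start in neurons. It was at 7.89 and 20.38 TPM. Transcripts placed with the downstream start held 80.1% and 51.0% of its TPM. The upstream start, 9430 bases away, held 19.9% and 49%. In replicate 2 the main downstream transcript, of 4755 bases, held 24.24% on 245 counts. Another 23.06% was a transcript of 430 bases on 12 counts that begins further inside the gene. The near even split in TPM thus rests in part on those 12 counts. In counts the upstream class went from 110 to 528 and the downstream class from 412 to 268, while the gene as a whole was not called. Inpp5f (chr7:128611328-128696425), a phosphoinositide phosphatase gene, has a paternally expressed variant that starts inside the gene in brain. It was at 102.9 and 83.55 TPM and was called lower by counts (3967 and 2605). Transcripts of the internal start held 88.6% and 75.3% of it, against 8.3% and 13.7% for the upstream start 76186 bases away. The internal start was the leading one in both libraries.

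H13, a signal peptide peptidase gene, hosts the paternally expressed retrogene Mcts2 in an intron, and its maternal transcripts run past Mcts2 while paternal ones end before it. H13 was at 8.1 and 40.26 TPM (233 and 880 counts, called higher, log2 count ratio 1.34, adjusted p = 5.2e-42 by the binomial test with TMM sizes). With the GC trend removed the direction turned and it was called lower (log2 count ratio -1.48). Transcripts that end before Mcts2 held 63.7% of its TPM in replicate 1 and 23.6% in replicate 2, and those that run past it 36.3% and 76.4%. In counts, the first class had 125 and 193 and the second 108 and 687, so the shares moved with the longer class. Mcts2 was at 9.57 and 16.05 TPM on 101 and 127 counts and was not called. Mcts1, the X-linked parent gene from which the retrogene was copied, was 18.2 and 6.02 times as high. How reads matching both genes were split is not stated, so the level of Mcts2 is uncertain.

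Over the members as a whole, 27 had several transcripts in the tables and 13 had 1. In 24 members with several transcripts and at least 1 TPM in both libraries, the leading transcript was the same in 14 (58.3%). Among all such genes it was the same in 5428 of 8284 (65.5%). Nnat was the clearest further case of a changed leader, with a transcript of 1135 bases at 96.27% in replicate 1 and 1.8% in replicate 2. In replicate 2 a transcript of 1213 bases held 64.23% and another of 1146 bases held 30.28%. These transcripts differ by few bases, with 0, 72 and 32 bases not found in the others, in that order. In Blcap, Igf2r and Mest the leading transcript held at least 93.61%, 100% and 99.31% in each library.

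Of the other paternally expressed genes, several were near equal in TPM between the libraries, and Nnat and Rasgrf1 were higher in replicate 2. Peg3, a zinc finger gene that bears on maternal behaviour and growth, was at 81.3 and 87.88 TPM, 84.6 ± 4.65 (SD, n = 2). Usp29, which shares a bidirectional promoter with Peg3, was at 13.96 and 11.76 TPM and was called lower by counts (487 and 309). Zim1, the maternally expressed neighbour, was at 1.53 and 1.88 TPM. The order Peg3, Usp29, Zim1 was thus the same in both libraries, with Peg3 at 5.82 and 7.47 times Usp29 and at 53.1 and 46.7 times Zim1.

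Nap1l5 (chr6:58905233-58907076), a retrogene within an intron of Herc3, was at 541.2 and 401.1 TPM, 471 ± 99 (SD, n = 2), and was called lower by counts (13299 and 7418). Its host Herc3 was at 66.22 and 79.39 TPM, so the retrogene was above its host in both libraries. Impact, an inhibitor of the Gcn2 stress kinase that is abundant in neurons, was at 145.4 and 141.5 TPM, 143 ± 2.74 (SD, n = 2), the closest agreement in TPM among the members above 100 TPM. By counts it stood just past 2-fold lower (log2 -1.02) with TMM sizes and at -0.41 with library totals. Sgce, a dystrophin-complex gene mutated in myoclonus dystonia, was at 26.39 and 33.91 TPM. Peg10, a retrotransposon-derived gene that shares its promoter region, was at 12.94 and 15.25 TPM. Sgce was 2.04 and 2.22 times as high as Peg10. Mest, a hydrolase-fold gene of mesoderm and brain, was at 16.67 and 18.24 TPM, and Zrsr1, a splicing factor retrogene in an intron of Commd1, was at 22.28 and 28.85 TPM. None of these 4 was called. Plagl1, a growth-suppressing zinc finger gene, was at 12.97 and 10.34 TPM and was called lower (817 and 398 counts).

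Nnat (chr2:157560078-157562522), which encodes the small membrane proteolipid neuronatin, was at 50.35 TPM in replicate 1 and 226.2 TPM in replicate 2, 4.49-fold (4.12 to 4.9), and was called higher (log2 count ratio 1.28). With the GC trend removed it was called lower (log2 count ratio -2.08). It lies in an intron of Blcap, a gene of apoptosis that was at 20.99 and 69.12 TPM and not called. Nnat was 2.4 and 3.27 times Blcap. Rasgrf1 (chr9:89909908-90026977), a calcium-dependent Ras activator of neurons, was at 28.14 and 139 TPM, 4.94-fold (4.67 to 5.23), and was called higher (log2 count ratio 1.31). Copg2, a coat protein gene whose end overlaps Mest by 912 exonic bases on the opposite strand, was at 31.79 and 52.89 TPM and not called.

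The genes of the growth factor loci ranged from Igf2 down to H19. Igf2, a fetal growth factor that in adult brain is known from choroid plexus and meninges, was at 14.27 and 41.45 TPM (725 and 1168 counts) and not called (log2 count ratio 0.12). Markers of choroid plexus summed to 84.8 and 886 TPM with 3 of 6 called higher (34.5% of all genes were). Ttr made up most of this, at 71.99 and 855.8 TPM, and the other 5 summed to 12.8 and 30.2 TPM. Folr1 was at 0 in replicate 1, and Otx2, Kl and Clic6 were not called. Markers of meningeal fibroblasts summed to 25.4 and 38.79 TPM with 2 called higher and 2 lower of 6. Their part in the level of Igf2 was not tested. H19, the maternally expressed noncoding RNA of the same locus, had 1 and 2 counts and was the only member under the filter on low counts. Igf2r, the receptor that clears Igf2, was at 1.54 and 6.17 TPM and was called higher (log2 count ratio 1.02, adjusted p = 9.83e-19 by the binomial test with TMM sizes). Airn, the paternally expressed antisense RNA that silences Igf2r outside neurons, was at 1.2 and 2.76 TPM on 11 and 19 counts. Cdkn1c, a maternally expressed cell cycle inhibitor, was at 3.34 and 5.22 TPM. Kcnq1ot1, the long antisense RNA of its domain, was at 0.6 and 0.36 TPM, although it had 727 and 331 counts, since these spread over 84212 effective bases. It was called lower with TMM sizes and with library totals, and not with the GC trend or a length trend removed.

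The pair Trappc9 and Kcnk9 on chromosome 15 had the highest TPM ratio of any locus, 48.0 for their sum. Kcnk9 (chr15:72501089-72546340), a potassium leak channel gene expressed from the maternal copy in brain, was at 0.34 TPM in replicate 1 and 17.96 TPM in replicate 2, on 5 and 199 counts. Trappc9 (chr15:72589620-73061204), a vesicle transport gene, was at 0.55 and 24.77 TPM on 27 and 940 counts. The ratios were 52.8 (22.3 to 164) and 45 (30.8 to 68.7), and the ratio of Trappc9 to Kcnk9 within a library was 1.62 and 1.38. Both were called higher under TMM sizes, with library totals and after the GC trend was removed. The size that remained differed. The log2 count ratio of Kcnk9 was 4.61 with TMM sizes and 4.98 with the GC trend removed. That of Trappc9 fell from 4.52 to 1.35. With 5 counts in replicate 1, the size of the ratio of Kcnk9 is known only to the width of that interval. Kcnk9 also passed the filter on low counts only through replicate 2, so the filter favoured a call in that direction.

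The difference between the libraries followed the GC content of transcripts in all genes, and the members showed the same direction. Across 14188 genes with a mean of at least 1 TPM, the log2 TPM ratio and transcript GC content had a Spearman correlation of 0.89, and across the 40 members it was 0.65. Of the 10 members under 45% GC, 0 were called higher and 8 lower, where 0.178% and 77.9% of 3943 genes in that range were. Of 13 members from 45% to under 50% GC, 1 was called higher and 1 lower, against 3.33% and 15.7% of genes. Of 16 tested members at 50% GC or more, 10 were called higher and 0 lower, against 68.4% and 1.24% of genes. After the trend of all genes was taken off the log2 count ratios, 4 members were called higher (Kcnk9, Ndn, Snurf and Trappc9) and 8 lower (Cdkn1c, Gnas, H13, Igf2, Magel2, Meg3, Nnat and Plagl1), when 10.3% and 9.06% of all genes were called. Relative to genes of the same GC content, the log2 TPM ratio was 3.33 for Kcnk9 and 1.5 for Ndn, and -2.93 for Cdkn1c. What set this trend was not tested.

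**Figure D4:**
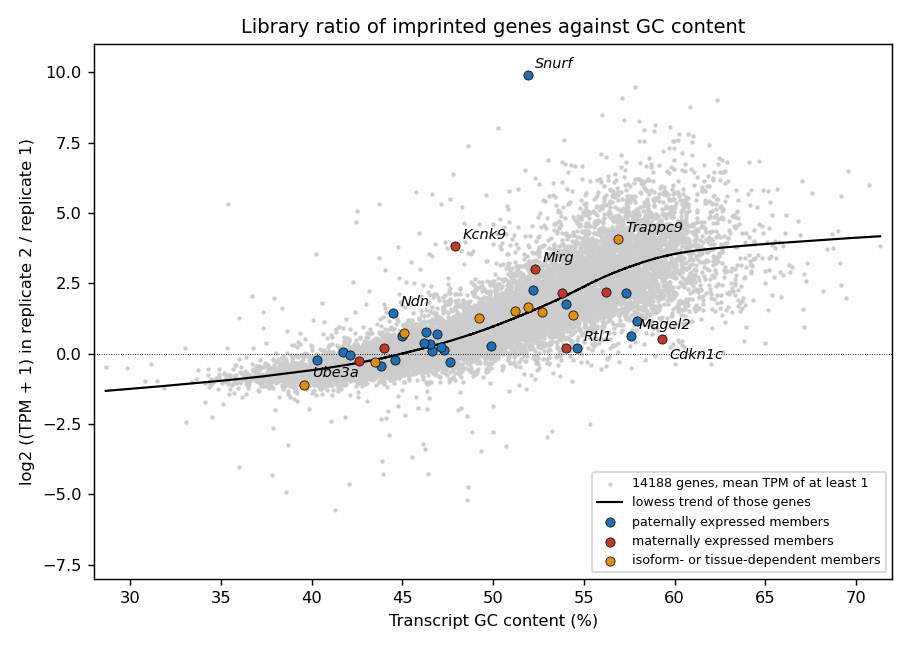
Log2 ratio of replicate 2 over replicate 1, from TPM + 1, against transcript GC content (%) for 14188 genes (grey) with their lowess trend (line) and for the 40 imprinted genes (coloured by expressed parental copy). Ube3a (39.6% GC) lies at the low end and Trappc9 (56.9% GC) near the high end, Snurf and Kcnk9 lie above the trend, and Cdkn1c and Magel2 lie below it.

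A further list of 49 imprinted genes reported in brain or other tissues was set beside the members, and 43 were in the tables. Of 34 tested, 8 were called higher and 8 lower (23.5% each), where 34.5% and 23.8% of all genes were. The median log2 TPM ratio of the 43 was 0.26, against 0.71 for all genes tested. With library totals the calls were 10 higher and 0 lower, where 43.4% and 7.83% of all genes were called. The highest of them were Cd81, a tetraspanin gene, at 60.77 and 327.8 TPM, the creatine synthesis gene Gatm at 109.5 and 121.3 TPM and Herc3 as given above. Ppp1r9a, which encodes the actin-binding neurabin, was at 59.7 and 58.92 TPM. Nap1l4 was at 29.03 and 78.69 TPM, and Bcl2l1, an inhibitor of apoptosis, at 22.49 and 78.39 TPM. Among those with a mean of at least 5 TPM, Cd81, Bcl2l1, Begain, Tssc4, Dhcr7 and Osbpl5 were called higher and Ppp1r9a, Casd1, Qpct, Phactr2 and Zdbf2 lower. The widest differences were those of Begain, a postsynaptic density gene at 1.08 and 66.57 TPM, and of Tssc4, at 0.23 and 39.65 TPM on 3 and 457 counts. With the GC trend removed Begain was not called (log2 count ratio -0.48) and Tssc4 stayed called higher (2.01). Of the other genes named here as called, only Dhcr7 kept its call in that setting.

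Genes that keep imprints were also present. Zfp57 was at 6.77 and 8.49 TPM and not called, and Zfp445, which binds the same class of regions, was at 54.21 and 40.04 TPM and called lower. Their shared corepressor Trim28 was at 6.33 and 104.7 TPM and called higher, as was Dnmt1, the maintenance DNA methyltransferase, at 1.89 and 14.77 TPM. Uhrf1, at 0.2 and 0.86 TPM on 9 and 30 counts, was called higher close to the limits. Its log2 count ratio was 1.11 (adjusted p = 0.0469, binomial test with TMM sizes), and it passed the filter on low counts only through replicate 2. Smchd1 was called lower at 21.43 and 16.69 TPM. Ctcf, at 33.07 and 39.21 TPM, and Setdb1, at 7.83 and 15.26 TPM, were not called. After the GC trend was removed, only Trim28 of these 8 was called.

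The tissue carried markers of brain cell types, and replicate 2 also held some RNA of liver and muscle marker genes. Neuronal markers summed to 4179 TPM in replicate 1 and 4189 TPM in replicate 2, oligodendrocyte markers to 2151 and 4997 TPM, and astrocyte markers to 681 and 1526 TPM. Microglial markers summed to 64.05 and 167.5 TPM and endothelial markers to 15.08 and 79.17 TPM. Pituitary hormone genes were at or near 0, with a sum of 0 and 0.13 TPM, and skeletal muscle markers summed to 0.06 and 10.13 TPM. In a bulk sample, fewer cells of a type and less RNA per cell cannot be told apart, and the part of cell composition in the members' levels was not tested.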

How the data were processed

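Poly(A) RNA-seq tables of 2 libraries from 1 mouse brain were used. Expected counts per gene and transcript, which are estimates that need not be whole, were deposited by the authors, and were rounded for the test. The deposited tables also give TPM, and for each transcript its percent of the gene's TPM as the authors computed it. The deposited listings name mm10 and GENCODE M4. No source used here names the aligner, the quantifier or their versions, or says whether strand was used. Rows other than genes held 0 counts in replicate 1 and 1 in replicate 2 and were left out. Symbols, positions and GC content came from GENCODE M21 on the same build, and promoter windows from RefSeq.

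Genes with at least 10 counts over both libraries were compared by a 2-sided exact binomial test with TMM sizes (edgeR 4.0.16, R 4.3.3), Benjamini-Hochberg adjusted over all 16320 genes, with a prior count of 0.5 in the fold. Python 3.11.15 with scipy 1.17.1 and statsmodels 0.14.6 (lowess, fraction 0.2, for the GC trend) did the rest. On Poisson counts simulated around a shared mean for 16368 genes, 196 of 200 genes changed 4-fold were called, with 1 other call. The simulation used library totals, held no GC trend or other library effect and changed no gene of low count. It checks the calling steps and gives no error rate for these libraries, where 58.2% of genes were called. Log2 TPM ratios used a pseudocount of 1. Depth was 18302506 and 17828479 counts, so a count of 0 allows 3 counts, 1.64e-05% and 1.68e-05% of a library. Alternatives were library totals, DESeq2 1.42.0 size factors, other filters, folds and pseudocounts, posterior means, and GC or length trends removed. With 1 library on each side no test across replicates was possible.

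All 40 members are named, with transcripts that hold at least 10% of a gene in either library where described. Of the further imprinted genes, the 6 of highest mean TPM and those called with a mean of at least 5 TPM are named. The members and lists were chosen with earlier results of these data known. Promoters of Cdkn1c, H19, Impact, Kcnk9, Peg10, Rtl1, Sgce and Trappc9 were not used.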

Additional observations from a re-analysis of the deposited data

How the results depend on the processing

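The 11 members called higher in replicate 2 were 15 with library totals, 11 with DESeq2 size factors, 11 with no filter and 9 with at least 50 counts. They were 5 at 4-fold (all genes 24.9%), 7 with a length trend removed (29.0%) and 4 with the GC trend removed (10.3%), 3 of them among the 11. The 9 called lower were 3 with library totals (7.83% of all genes), 1 at 4-fold (2.49%), 15 at 1.5-fold (32.9%) and 8 with the GC trend removed (9.06%), 1 of them among the 9. Of the further imprinted genes, 4 were called higher with the GC trend removed, 3 of them among the 8, and 2 lower, 0 of them among the 8. Library totals left 0 lower. With the GC trend removed the log2 TPM ratio changed sign for 17 members. Of these, 8 had been called: H13 (-0.56), Impact (0.34), Dlk1 (-0.30), Nnat (-0.89), Dio3 (-2.02), Rtl1 (-2.04), Rian (0.07) and Kcnq1ot1 (0.33). The 9 not called before were Cdkn1c, Gnas, H19, Igf2, Magel2, Mest, Mkrn3, Peg10 and Peg3. The pseudocount of 1 understates the ratio of low genes before the trend is taken off. On counts with the GC trend removed, Dio3 (1.42) and Rtl1 (1.83) stayed above 0 and Kcnq1ot1 (-0.12) stayed under 0. With TMM-scaled CPM in place of TPM the log2 ratio changed sign for 13 members, Snhg14 (-1.74) among the called ones and 12 not called. These 2 scales differ in level. TMM sizes put every log2 count ratio 0.61 under that of library totals. At equal length 1 count was worth 1.33 times as much TPM in replicate 2. What else moved single members was not tested. With posterior mean TPM the sign changed for Plagl1 (0.01), and the cause was not tested. No sign changed with a pseudocount of 0.1 or 5. Members detected in replicate 1 numbered 31 at 1 TPM, 34 at 0.5 TPM and 25 at 5 TPM. Leaving out 1 library gave paternal sums of 1660 to 3210 TPM and maternal sums of 1680 to 2520 TPM. The paternal mean without Snurf, a setting chosen after seeing the data, was 1960 TPM. No paired analysis was possible because the series has 1 group. Both libraries come from 1 mouse, so no statement on other animals can be made, and genes under about 10 counts are limited by depth.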
